A study of Mus musculus with 4 samples.

Results

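Immunoglobulin variable segments are the gene pieces that encode most of the antigen-binding part of an antibody chain, and their RNA was followed here in the mouse endometrium (the lining of the uterus). Rows of the deposited gene tables whose symbol starts with Ighv, Igkv or Iglv were taken where the mean FPKM (fragments scaled to gene length and library size) over the 4 libraries was at least 1. This gave 155 of the 213 variable segments listed, among 28545 genes: 78 of 107 heavy chain segments, 74 of 103 kappa light chain segments and 3 of 3 lambda light chain segments. Of the 58 segments left out, 50 had a count in some library and 8 had none.

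Polyadenylated RNA was sequenced in 4 libraries, 2 titled SMAD7 Cre+/- (with CKO as their treatment label) and 2 titled SMAD7fl/fl (treatment label "blank"). All carry a Smad7 gene with loxP sites, made by injecting Cas9 mRNA, a guide RNA and a donor vector into fertilized eggs, and all mice were in proestrus, the stage of the cycle before ovulation. The design text calls the animals SMAD7 knockout mice and WT, and the study's title is about stromal cells turning into myofibroblasts. The sources used here give neither the Cre line, the deleted exons nor the age of the mice. Whether each library is a separate animal is not stated, so a p-value here reflects spread among libraries that may be only technical.

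Smad7 itself went against the labels: its level was 49.9 and 33.9 FPKM in the libraries labelled Cre+/-, against 7.79 and 7.81 FPKM in the libraries labelled fl/fl (log2 fold change 2.42 ± 0.28 SE, edgeR adjusted p = 0.0981). Counts are per gene, so a lost exon cannot be seen, and an exchange of the labels was not tested. Groups are named below by their labels as given, and every direction would turn round if the labels were exchanged. All 10 genes listed for endometrium were present, which does not by itself identify the tissue. Their sum was 1431 and 1208 FPKM in the libraries labelled Cre+/-, and 1289 and 1372 FPKM in the libraries labelled fl/fl. Genes of smooth muscle, the tissue of the outer layer of the uterus, summed to 2859 and 2560 FPKM in the libraries labelled Cre+/-, against 1799 and 1544 FPKM in the libraries labelled fl/fl. Total counts were 19830568 and 17444368 in the libraries labelled Cre+/-, against 22950532 and 18193504 in the libraries labelled fl/fl.

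A developing B cell cuts its DNA and joins a single variable segment to short diversity and joining segments, or to a joining segment alone in a light chain, so that each B cell clone carries its own choice of segments. Plasma cells, the antibody-secreting descendants of B cells, hold so much immunoglobulin RNA that a bulk library reads mostly from them, and the mix of segments then reflects which clones are present and how much RNA each makes. In mucosal tissues such as the uterus many plasma cells make IgA, which the receptor Pigr carries across the epithelium. In bulk tissue, fewer plasma cells and less RNA per cell cannot be told apart.

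The segments lie in 3 loci, here with coordinates on GRCm38 from GENCODE release 21. The 78 heavy chain segments span chr12:113588267-116000461 and all lie on the minus strand. The 74 kappa segments span chr6:67609713-70704177, 30 on the plus strand and 44 on the minus strand. The 3 lambda segments span chr16:19085017-19260859. All 155 are annotated as IG_V_gene, with exon lengths between 347 and 425 bases (median 360), and none shares an exon base with another annotated gene.

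Close relatives differ by few bases, and some of them differed in opposite directions between the groups, so the last 280 bases of the final exon are shown for 3 sets of relatives, chosen after their values were seen. They are read from GENCODE transcripts on GRCm38, and capitals mark the bases that are not the same in all members of a set. The first set is from the Igkv6 family, in which Igkv6-15 and Igkv6-17 were higher and Igkv6-23 and Igkv6-25 lower in the libraries labelled Cre+/-. The stretches are chr6:70406469-70406748 (minus strand) for Igkv6-15, chr6:70371714-70371993 (plus) for Igkv6-17, chr6:70260409-70260688 (minus) for Igkv6-23 and chr6:70215678-70215957 (plus) for Igkv6-25.
Igkv6-15: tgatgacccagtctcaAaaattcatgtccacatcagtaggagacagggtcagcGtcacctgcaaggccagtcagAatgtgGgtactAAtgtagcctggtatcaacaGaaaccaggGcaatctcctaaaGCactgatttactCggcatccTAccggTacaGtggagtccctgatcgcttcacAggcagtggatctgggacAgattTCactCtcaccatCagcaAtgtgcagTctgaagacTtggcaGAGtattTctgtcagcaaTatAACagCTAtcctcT
Igkv6-17: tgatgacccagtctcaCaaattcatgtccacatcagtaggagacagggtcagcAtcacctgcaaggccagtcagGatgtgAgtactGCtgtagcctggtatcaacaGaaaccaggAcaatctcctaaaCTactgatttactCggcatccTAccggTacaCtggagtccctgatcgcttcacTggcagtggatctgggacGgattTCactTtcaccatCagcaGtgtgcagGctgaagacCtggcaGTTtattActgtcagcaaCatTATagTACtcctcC
Igkv6-23: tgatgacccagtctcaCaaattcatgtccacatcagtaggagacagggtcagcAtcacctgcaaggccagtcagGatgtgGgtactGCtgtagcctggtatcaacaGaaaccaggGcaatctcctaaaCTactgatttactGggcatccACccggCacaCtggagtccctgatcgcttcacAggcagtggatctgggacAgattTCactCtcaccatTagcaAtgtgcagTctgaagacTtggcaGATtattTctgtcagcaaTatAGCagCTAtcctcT
Igkv6-25: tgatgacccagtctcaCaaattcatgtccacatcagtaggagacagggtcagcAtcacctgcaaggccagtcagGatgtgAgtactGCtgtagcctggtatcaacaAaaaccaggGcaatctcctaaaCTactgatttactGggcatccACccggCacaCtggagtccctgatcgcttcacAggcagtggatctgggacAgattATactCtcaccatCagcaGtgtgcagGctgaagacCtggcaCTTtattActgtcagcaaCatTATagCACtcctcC
These 4 stretches differ at 36 of 280 positions. Igkv6-15 and Igkv6-23 differ at 15 positions (94.6% identity), and Igkv6-17 and Igkv6-25 at 13 (95.4%), so the closest pairs each hold a segment that was higher and a segment that was lower.

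The second set pairs Igkv9-129 (chr6:67839987-67840266, plus strand), nearly absent from the libraries labelled fl/fl, with Igkv9-124 (chr6:67942074-67942353, minus strand), which was lower in the libraries labelled Cre+/-.
Igkv9-129: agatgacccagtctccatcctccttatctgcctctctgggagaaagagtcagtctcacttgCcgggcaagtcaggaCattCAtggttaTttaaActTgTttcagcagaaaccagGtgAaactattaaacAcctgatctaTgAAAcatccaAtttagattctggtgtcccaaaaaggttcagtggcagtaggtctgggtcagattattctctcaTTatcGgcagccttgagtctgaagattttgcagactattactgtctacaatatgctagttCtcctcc
Igkv9-124: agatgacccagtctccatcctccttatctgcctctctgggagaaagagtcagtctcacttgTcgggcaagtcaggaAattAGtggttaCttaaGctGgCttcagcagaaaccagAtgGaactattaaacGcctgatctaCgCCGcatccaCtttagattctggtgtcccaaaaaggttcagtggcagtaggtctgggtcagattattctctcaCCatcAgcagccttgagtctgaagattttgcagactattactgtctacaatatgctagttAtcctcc
These stretches differ at 20 positions, an identity of 92.9%. The third set holds Ighv1-74 (chr12:115802648-115802927), the segment with the smallest p-value, and its relatives Ighv1-52 (chr12:115145487-115145766) and Ighv1-61 (chr12:115359140-115359419), all on the minus strand and all lower in the libraries labelled Cre+/-.
Ighv1-74: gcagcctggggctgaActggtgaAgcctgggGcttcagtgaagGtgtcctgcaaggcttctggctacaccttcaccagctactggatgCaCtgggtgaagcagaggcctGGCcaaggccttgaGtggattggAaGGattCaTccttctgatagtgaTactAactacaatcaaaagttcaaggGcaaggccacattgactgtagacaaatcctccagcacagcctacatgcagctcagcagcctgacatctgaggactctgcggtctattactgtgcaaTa
Ighv1-52: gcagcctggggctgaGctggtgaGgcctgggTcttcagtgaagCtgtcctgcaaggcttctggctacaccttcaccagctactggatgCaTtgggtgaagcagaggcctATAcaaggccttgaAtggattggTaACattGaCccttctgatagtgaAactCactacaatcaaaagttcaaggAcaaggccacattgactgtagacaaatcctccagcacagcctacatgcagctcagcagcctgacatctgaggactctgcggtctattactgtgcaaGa
Ighv1-61: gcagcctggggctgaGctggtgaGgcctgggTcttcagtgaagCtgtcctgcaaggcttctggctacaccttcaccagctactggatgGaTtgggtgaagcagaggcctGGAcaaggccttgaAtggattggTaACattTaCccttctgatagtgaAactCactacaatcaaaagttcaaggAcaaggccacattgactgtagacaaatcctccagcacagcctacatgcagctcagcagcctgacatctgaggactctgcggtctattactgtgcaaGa
Ighv1-52 and Ighv1-61 differ at 4 positions (98.6% identity), and Ighv1-74 differs from Ighv1-52 at 18. Over the 155 segments the nearest other segment differed at a median of 13 positions of the same stretch (range 2 to 135), and 10 segments had a neighbour within 5. Reads of such close copies can be left out or assigned to the other copy, so single values of near-identical segments are uncertain.

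Variable segment RNA was less abundant in the libraries labelled Cre+/- at each of the 3 loci. Heavy chain segments summed to 951 and 778 FPKM in the libraries labelled Cre+/-, against 2325 and 2009 FPKM in the libraries labelled fl/fl. Kappa segments summed to 1404 and 1317 FPKM in the libraries labelled Cre+/-, against 2831 and 3321 FPKM in the libraries labelled fl/fl. Lambda segments summed to 55.1 and 52.1 FPKM in the libraries labelled Cre+/-, against 141 and 122 FPKM in the libraries labelled fl/fl.

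The groups did not overlap at any locus. Heavy chain sums averaged 865 ± 123 FPKM in the libraries labelled Cre+/- and 2167 ± 224 FPKM in the libraries labelled fl/fl (SD, n = 2 each), a ratio of 0.399 and a log2 ratio of -1.33. Kappa sums averaged 1360.4 ± 61.3 FPKM in the libraries labelled Cre+/- and 3076 ± 347 FPKM in the libraries labelled fl/fl, a log2 ratio of -1.18. Lambda sums averaged 53.6 ± 2.11 FPKM in the libraries labelled Cre+/- and 131 ± 12.9 FPKM in the libraries labelled fl/fl, a log2 ratio of -1.29. As a share of all counts, the segments took 0.0891% and 0.0793% in the libraries labelled Cre+/-, against 0.196% and 0.201% in the libraries labelled fl/fl. These sums rest on 17665 and 13842 counts in the libraries labelled Cre+/- and on 44880 and 36496 counts in the libraries labelled fl/fl. No p-value is given for sums over members chosen with results known.

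**Figure D1:**
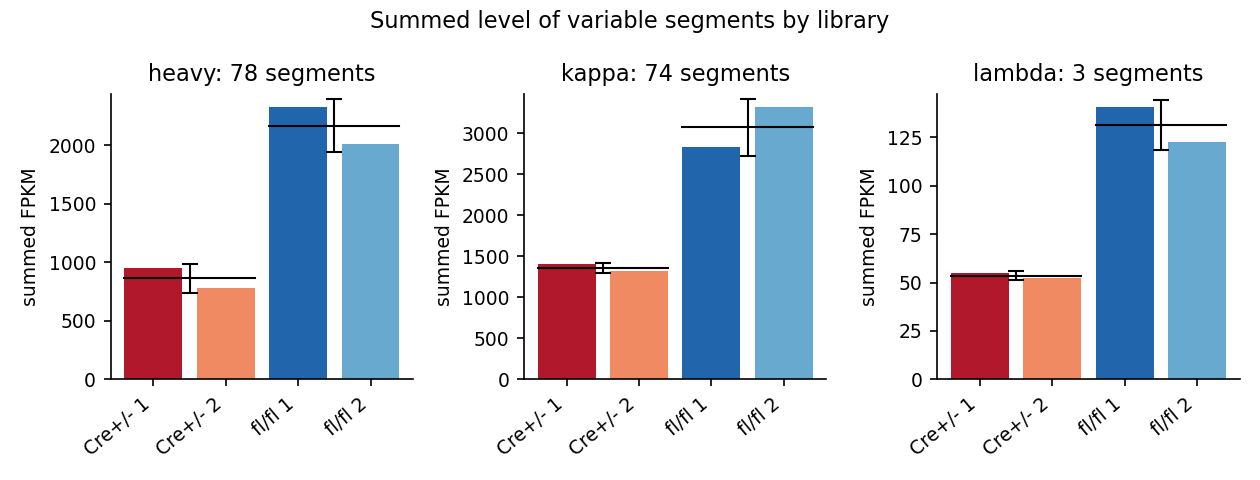
Summed FPKM of the variable segments of each locus, 1 bar per library, with the 2 libraries labelled Cre+/- on the left of each panel. Horizontal lines are group means and error bars 1 SD (n = 2 per group). Both libraries labelled Cre+/- stand below both libraries labelled fl/fl at each locus, for heavy chain segments at 951 and 778 against 2325 and 2009 FPKM.

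Segment by segment, lower values in the libraries labelled Cre+/- were more common than higher ones, and no segment passed the test. At an adjusted p under 0.05, edgeR's quasi-likelihood test called 0 of 155 segments and 0 of 13513 genes (0%), with a lowest adjusted p of 0.0919 among segments. At an unadjusted p under 0.05, 69 segments were lower (44.5%, against 6.59% of all genes tested) and 10 higher (6.45%, against 7.3%). Values of the groups did not overlap for 86 segments lower in the libraries labelled Cre+/- (55.5%, against 23.6% of all genes) and for 19 higher (12.3%, against 24.7%), and they overlapped for 50. At a looser adjusted p under 0.1, 11 segments were lower (7.1%, against 0.296% of all genes) and 2 higher (1.29%, against 0.281%). By size alone, 90 segments were more than 2-fold lower in the libraries labelled Cre+/- (58.1%, against 7.07% of all genes) and 13 more than 2-fold higher (8.39%, against 6.05%). The sign of the fold change was negative for 118 segments (76.1%, against 53% of all genes) and positive for 37 (23.9%, against 47%). The median log2 fold change was -1.49 over the segments and -0.033 over all genes tested.

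By locus, 37 of 78 heavy chain segments were lower and 3 higher at an unadjusted p under 0.05, with a median log2 fold change of -1.58. Of 74 kappa segments, 30 were lower and 7 higher, with a median of -1.44. Of the 3 lambda segments, 2 were lower and 0 higher, with a median of -1.10. Over all genes tested, 6.59% were lower and 7.3% higher at the same cutoff in edgeR's test. The numbers higher at each locus are few, and a difference between loci was not tested.

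The threshold on mean FPKM was met only through the libraries labelled fl/fl by 15 segments and only through the libraries labelled Cre+/- by 2, and such segments had to differ, so these counts are a description. Other tools called different numbers at an adjusted p under 0.05. DESeq2 called 52 segments lower (33.5%, against 3% of all genes) and 7 higher (4.52%, against 3.24%). With limma on log2(FPKM + 1) it was 0, and at an unadjusted p under 0.05 it was 68 lower (43.9%, against 5.96% of all genes) and 14 higher (9.03%, against 7.1%). In both tools the shares lower stood further above those over all genes than the shares higher did. With 1 library left out, edgeR takes its spread from the remaining pair alone, so only the size of the difference is given. The median log2 fold change over the segments was -1.15 without fl/fl replicate 1 and -1.37 without fl/fl replicate 2. It was -1.53 without Cre+/- replicate 1 and -1.47 without Cre+/- replicate 2.

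The 6 segments with the smallest p-values among those lower in the libraries labelled Cre+/- were 4 heavy chain and 2 kappa segments. Ighv1-74 had 1.01 and 1.14 FPKM in the libraries labelled Cre+/-, against 58.1 and 30.9 FPKM in the libraries labelled fl/fl, or 14 against 665 counts. The groups lie far apart, with a log2 fold change of -5.34 ± 0.52 (SE) and an edgeR adjusted p of 0.0919. Ighv1-52, whose last exon is shown above, had 0.72 and 1.80 FPKM in the libraries labelled Cre+/-, against 57.6 and 32.9 FPKM in the libraries labelled fl/fl (log2 fold change -5.16). Ighv1-61 had 0.72 and 2.78 FPKM in the libraries labelled Cre+/-, against 15.8 and 10.5 FPKM in the libraries labelled fl/fl (log2 fold change -2.91). All 3 relatives thus had the same direction and no overlap.

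Ighv2-3, in the part of the heavy locus nearest the constant regions, had 0.87 and 0.99 FPKM in the libraries labelled Cre+/-, against 22.9 and 42.6 FPKM in the libraries labelled fl/fl (log2 fold change -5.13 ± 0.59 SE, edgeR adjusted p = 0.0981). It met the threshold on mean FPKM only through the libraries labelled fl/fl, so it had to differ and its values are a description. Ighv9-1 had 2.30 and 2.45 FPKM in the libraries labelled Cre+/-, against 41.7 and 28.5 FPKM in the libraries labelled fl/fl (-3.87 ± 0.42, edgeR adjusted p = 0.0919). Ighv1-12 had 3.14 and 1.78 FPKM in the libraries labelled Cre+/-, against 39.7 and 35.0 FPKM in the libraries labelled fl/fl (-3.91 ± 0.45, edgeR adjusted p = 0.0981). These heavy chain segments were near the lower end of detection in the libraries labelled Cre+/- and of middling level in the others.

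A pair of kappa segments differed less in fold but were abundant in every library. Igkv6-23 had 31.0 and 31.1 FPKM in the libraries labelled Cre+/-, against 149 and 128 FPKM in the libraries labelled fl/fl (log2 fold change -2.16 ± 0.21 SE, edgeR adjusted p = 0.0919). Igkv10-96 had 37.6 and 35.0 FPKM in the libraries labelled Cre+/-, against 159 and 178 FPKM in the libraries labelled fl/fl (-2.22 ± 0.22, edgeR adjusted p = 0.0919). Within each group their libraries lay close together, and the groups did not overlap. Ighv3-4 and Igkv3-9, named after their values were seen, had no count in either library labelled Cre+/-. Both met the threshold on mean FPKM only through the libraries labelled fl/fl. Ighv3-4 had 27 and 13 counts in the libraries labelled fl/fl, while all 30 counts of Igkv3-9 came from fl/fl replicate 2.

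While the total was lower, some segments were higher in the libraries labelled Cre+/-. At an unadjusted p under 0.05 in edgeR's test these were 10 segments, 7 of them kappa. Their share of the segments, 6.45%, was near the 7.3% of all genes tested, so higher segments were no more common than higher genes at this cutoff. Other measures went either way. The shares were 1.29% against 0.281% at an edgeR adjusted p under 0.1, and 8.39% against 6.05% for more than 2-fold. For groups without overlap they were 12.3% against 24.7%. Igkv9-129 had 14 and 20.3 FPKM in the libraries labelled Cre+/-, against 0.25 and 0 FPKM in the libraries labelled fl/fl, or 223 counts against 2. The ratio, scaled to library size, was 123 (95% exact interval 33.7 to 1023, counting error only), with a log2 fold change of 6.82 ± 0.88 (SE) and an edgeR adjusted p of 0.0989. Igkv9-129 met the threshold on mean FPKM only through the libraries labelled Cre+/-, so it had to differ and these values are a description. Its relative Igkv9-124 had 7.71 and 5.36 FPKM in the libraries labelled Cre+/-, against 26.9 and 155 FPKM in the libraries labelled fl/fl, a log2 fold change of -3.83. The pair thus differed in opposite directions, and the high value of Igkv9-124 came from fl/fl replicate 2.

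Igkv6-15 had 125 and 132 FPKM in the libraries labelled Cre+/-, against 44.6 and 39.3 FPKM in the libraries labelled fl/fl (log2 fold change 1.62 ± 0.21 SE, edgeR adjusted p = 0.0989). Igkv6-17 had 59.7 and 72.7 FPKM in the libraries labelled Cre+/-, against 14.3 and 27.6 FPKM in the libraries labelled fl/fl (1.64 ± 0.42, edgeR adjusted p = 0.22). Their close relatives ran the other way: Igkv6-25 had 6.64 and 5.58 FPKM in the libraries labelled Cre+/-, against 24.2 and 22 FPKM in the libraries labelled fl/fl (log2 fold change -1.92), beside Igkv6-23 above. The family as a whole, with 8 segments, summed to 257 and 275 FPKM in the libraries labelled Cre+/-, against 350.5 and 321 FPKM in the libraries labelled fl/fl.

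Igkv2-112 had 40.4 and 26.5 FPKM in the libraries labelled Cre+/-, against 5.67 and 7.004 FPKM in the libraries labelled fl/fl (log2 fold change 2.39 ± 0.42 SE, edgeR adjusted p = 0.133). Igkv12-38 had 10.03 and 13.2 FPKM in the libraries labelled Cre+/-, against 1.00 and 1.58 FPKM in the libraries labelled fl/fl (3.15 ± 0.55, edgeR adjusted p = 0.133). Ighv1-49, the heavy chain segment in this set, had 61.8 and 75.8 FPKM in the libraries labelled Cre+/-, against 6.58 and 16.3 FPKM in the libraries labelled fl/fl (2.57 ± 0.53, edgeR adjusted p = 0.166). None of these groups overlapped.

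**Figure D2:**
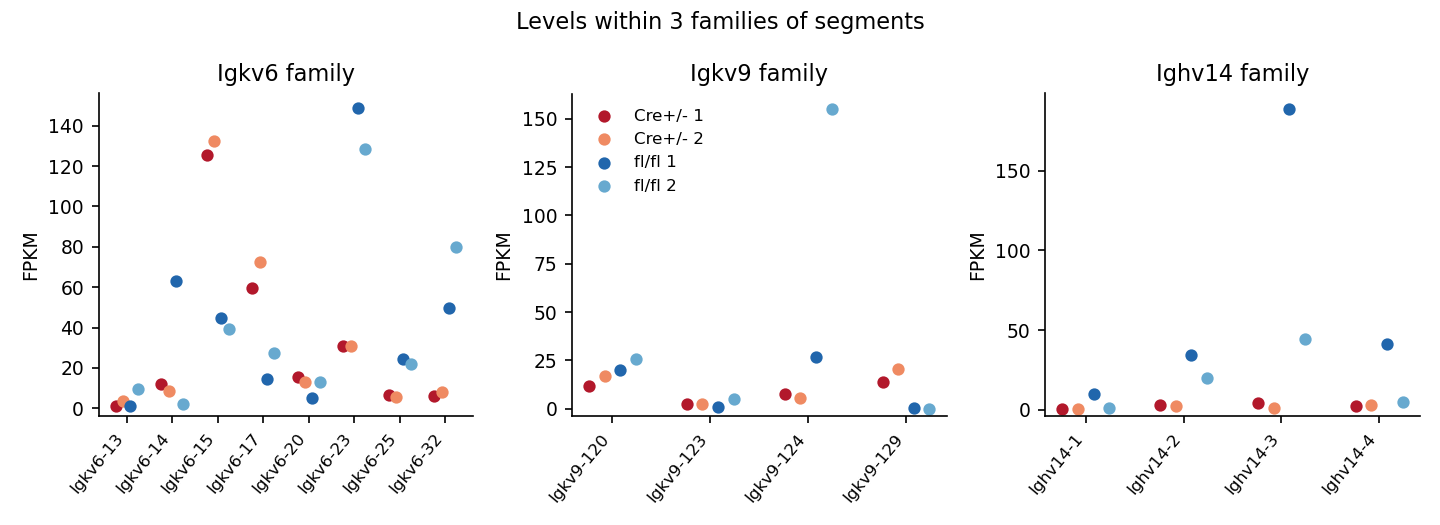
FPKM of the members of 3 segment families, 1 point per library, with the libraries labelled Cre+/- in red and orange on the left of each segment and those labelled fl/fl in blue on the right. Igkv6-15 and Igkv6-17 stand higher in the libraries labelled Cre+/- while Igkv6-23 and Igkv6-25 stand lower, and the 155 FPKM of Igkv9-124 and the 189 FPKM of Ighv14-3 are each a single fl/fl library.

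The most abundant segments were not the same in the groups. Ighv3-6 led the heavy chain in both libraries labelled fl/fl, with 42.4 and 34.2 FPKM in the libraries labelled Cre+/- against 401 and 214 FPKM in the libraries labelled fl/fl (log2 fold change -2.99 ± 0.35 SE, edgeR adjusted p = 0.0981). Its share of heavy chain FPKM was 4.45% and 4.401% in the libraries labelled Cre+/-, against 17.3% and 10.7% in the libraries labelled fl/fl. In the libraries labelled Cre+/- the lead was taken by Ighv9-3 in replicate 1 (11.7%) and by Ighv1-49 in replicate 2 (9.74%). The share of Ighv1-49 was 6.49% and 9.74% in the libraries labelled Cre+/-, against 0.283% and 0.811% in the libraries labelled fl/fl.

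Other leading segments differed little in level and had larger shares in the libraries labelled Cre+/-. Ighv9-3 had 112 and 69.7 FPKM in the libraries labelled Cre+/-, against 53.9 and 88.3 FPKM in the libraries labelled fl/fl (log2 fold change 0.34 ± 0.39 SE, edgeR adjusted p = 0.715), which was -0.051 without Cre+/- replicate 1 and -0.0089 without fl/fl replicate 1. Its share was 11.7% and 8.97% in the libraries labelled Cre+/-, against 2.32% and 4.396% in the libraries labelled fl/fl. Ighv1-26 had 57.9 and 46.7 FPKM in the libraries labelled Cre+/-, against 68.5 and 78.9 FPKM in the libraries labelled fl/fl (log2 fold change -0.50), while its share was 6.09% and 6.005% in the libraries labelled Cre+/-, against 2.95% and 3.93% in the libraries labelled fl/fl. The levels of Ighv9-3 overlapped between the groups and those of Ighv1-26 did not.

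Ighv5-17 and Ighv14-3 differed widely between the libraries labelled fl/fl. Ighv5-17 had 71.7 and 60.9 FPKM in the libraries labelled Cre+/-, against 147 and 38.8 FPKM in the libraries labelled fl/fl (log2 fold change -0.46, or 0.72 without fl/fl replicate 1). Ighv14-3 had 4.17 and 1.29 FPKM in the libraries labelled Cre+/-, against 189 and 44.6 FPKM in the libraries labelled fl/fl (-5.37 ± 0.93, edgeR adjusted p = 0.133). The groups overlapped for Ighv5-17 and not for Ighv14-3.

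Among kappa segments, Igkv6-15 led in both libraries labelled Cre+/-, with 8.93% and 10.1% of kappa FPKM, against 1.57% and 1.18% in the libraries labelled fl/fl. Igkv17-121 led in fl/fl replicate 1: it had 46.8 and 48.2 FPKM in the libraries labelled Cre+/-, against 202 and 132 FPKM in the libraries labelled fl/fl (log2 fold change -1.81). Igkv3-4 led in fl/fl replicate 2: it had 10.7 and 7.48 FPKM in the libraries labelled Cre+/-, against 25.3 and 247 FPKM in the libraries labelled fl/fl, so that its log2 fold change of -3.94 was -1.44 without that library. Leading segments therefore differed between the 2 libraries labelled fl/fl as well as between the groups.

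Igkv1-135, the segment farthest from the kappa constant region, had 43.0 and 62.4 FPKM in the libraries labelled Cre+/-, against 134 and 189 FPKM in the libraries labelled fl/fl (log2 fold change -1.63). Igkv3-2, among those nearest to it, had 33.1 and 17.9 FPKM in the libraries labelled Cre+/-, against 158 and 167 FPKM in the libraries labelled fl/fl (-2.67). Igkv1-117 had 71.0 and 69.4 FPKM in the libraries labelled Cre+/-, against 182 and 49.0 FPKM in the libraries labelled fl/fl (-0.70, or 0.47 without fl/fl replicate 1). Only the last of these 3 overlapped between the groups.

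The lambda locus was dominated by Iglv1, with 45.1 and 40.6 FPKM in the libraries labelled Cre+/-, against 95.3 and 87.9 FPKM in the libraries labelled fl/fl (log2 fold change -1.10). Iglv3 had 2.91 and 6.62 FPKM in the libraries labelled Cre+/-, against 31.1 and 26.4 FPKM in the libraries labelled fl/fl (-2.59), and Iglv2 had 7.03 and 4.86 FPKM in the libraries labelled Cre+/-, against 14.2 and 8.11 FPKM in the libraries labelled fl/fl (-0.90). Iglv1 took 82.0% and 78.0% of lambda FPKM in the libraries labelled Cre+/-, against 67.8% and 71.8% in the libraries labelled fl/fl. None of the 3 overlapped in level.

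**Figure D3:**
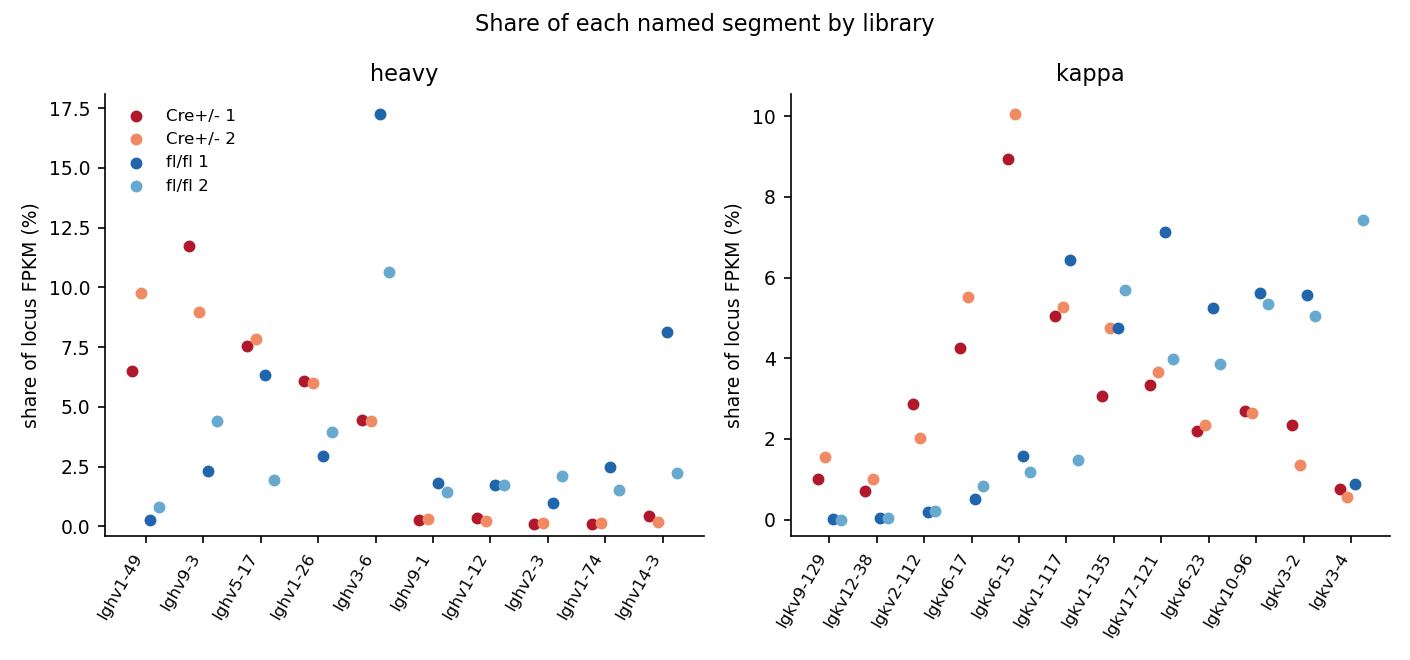
Share of each named heavy chain and kappa segment in the summed FPKM of its locus, in percent, 1 point per library, with the libraries labelled Cre+/- in red and orange and those labelled fl/fl in blue. Ighv1-49 and Igkv6-15 have larger shares in the libraries labelled Cre+/- (6.49% and 9.74%, and 8.93% and 10.1%), and Ighv3-6 has larger shares in the libraries labelled fl/fl (17.3% and 10.7%).

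Shares of a locus add up to its whole, so larger shares for some segments have to be met by smaller shares for others. A segment of equal level in every library has a larger share where the sum is lower, as in the libraries labelled Cre+/-. Segment shares lay at least 2-fold apart between every library of the groups for 26 segments higher and 26 lower in the libraries labelled Cre+/-. The 12 heavy chain segments with higher shares held 35.8% and 38.0% of heavy chain FPKM in the libraries labelled Cre+/-, against 7.33% and 9.11% in the libraries labelled fl/fl. The 17 with lower shares held 7.29% and 7.90% in the libraries labelled Cre+/-, against 45.0% and 34.1% in the libraries labelled fl/fl. For kappa, 14 segments with higher shares held 33.5% and 35.6% in the libraries labelled Cre+/-, against 6.25% and 5.94% in the libraries labelled fl/fl. The 9 with lower shares held 4.73% and 4.15% in the libraries labelled Cre+/-, against 18.9% and 25.9% in the libraries labelled fl/fl. These sets were chosen on the same values and carry no test.

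By family, the heavy chain families Ighv3 and Ighv14 had smaller shares in the libraries labelled Cre+/-. Ighv3, with 4 segments, took 5.63% and 5.78% in the libraries labelled Cre+/-, against 20.1% and 13.9% in the libraries labelled fl/fl. Ighv14, with 4 segments, took 1.09% and 0.964% in the libraries labelled Cre+/-, against 11.8% and 3.51% in the libraries labelled fl/fl. Ighv9, with 4 segments, went the other way at 13.8% and 10.4% in the libraries labelled Cre+/-, against 4.92% and 6.87% in the libraries labelled fl/fl. Ighv1, the biggest family with 41 segments, took 46.6% and 48.5% in the libraries labelled Cre+/-, against 36.4% and 46.9% in the libraries labelled fl/fl, and here the groups overlapped.

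Kappa families differed likewise. Igkv6, with 8 segments, took 18.3% and 20.9% in the libraries labelled Cre+/-, against 12.4% and 9.67% in the libraries labelled fl/fl. Igkv2, with 2 segments, took 4.17% and 4.10% in the libraries labelled Cre+/-, against 0.575% and 0.476% in the libraries labelled fl/fl. Igkv14, with 4 segments, took 0.555% and 0.740% in the libraries labelled Cre+/-, against 5.81% and 8.52% in the libraries labelled fl/fl. The groups did not overlap in any of these 3 families, which were named after their values were seen, as were the heavy chain families.

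Evenness did not separate the groups at the heavy and kappa loci, although the segments in the lead differed. The effective number of segments, the exponential of Shannon entropy and so the number of equally used segments that would give the same diversity, was 37.7 and 37.6 for the heavy chain in the libraries labelled Cre+/-, against 36.3 and 42.1 in the libraries labelled fl/fl. For kappa it was 44.4 and 42.2 in the libraries labelled Cre+/-, against 42.5 and 36.6 in the libraries labelled fl/fl. In both loci the libraries labelled fl/fl differed more from each other than the libraries labelled Cre+/- did, and the ranges overlapped. The mean difference for the heavy chain was -1.54 and turned to 1.39 without fl/fl replicate 2.

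Pielou evenness, the entropy as a fraction of its largest possible value, was 0.833 and 0.833 for the heavy chain in the libraries labelled Cre+/-, against 0.824 and 0.859 in the libraries labelled fl/fl. For kappa it was 0.881 and 0.869 in the libraries labelled Cre+/-, against 0.871 and 0.837 in the libraries labelled fl/fl. The 5 leading heavy chain segments held 36.3% and 36.9% in the libraries labelled Cre+/-, against 40.7% and 31.9% in the libraries labelled fl/fl. For kappa they held 27.2% and 30.0% in the libraries labelled Cre+/-, against 30.0% and 30.9% in the libraries labelled fl/fl. None of these measures held the groups apart. The share of the largest kappa segment did, at 8.93% and 10.1% in the libraries labelled Cre+/-, against 7.13% and 7.43% in the libraries labelled fl/fl. For lambda, the effective number was 1.79 and 1.97 in the libraries labelled Cre+/-, against 2.29 and 2.11 in the libraries labelled fl/fl, without overlap.

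Since segments were taken for their mean level, most had a count in every library. At least 1 count was present for 150 and 152 of the 155 segments in the libraries labelled Cre+/-, against 154 and 153 in the libraries labelled fl/fl, and 148 had a count in every library. Of all 107 heavy chain segments listed, 83 and 86 had a count in the libraries labelled Cre+/-, against 90 and 97 in the libraries labelled fl/fl. Of all 103 kappa segments listed it was 82 and 87 in the libraries labelled Cre+/-, against 82 and 83 in the libraries labelled fl/fl, at unequal depth. At a common depth of 4998 heavy chain counts, 74.9 and 76.0 of the 78 segments would be seen in the libraries labelled Cre+/-, against 76.6 and 75.8 in the libraries labelled fl/fl. At 8492 kappa counts, 72.0 and 73.0 of 74 would be seen in the libraries labelled Cre+/-, against 71.9 and 71.6 in the libraries labelled fl/fl. These expected numbers overlapped between the groups for the heavy chain and lay apart, by little, for kappa. Over all kappa segments listed, at 8518 counts, 81.1 and 87 were expected in the libraries labelled Cre+/-. In the libraries labelled fl/fl it was 78.3 and 79.8, also apart. Over all heavy chain segments listed, at 5022 counts, it was 82.2 and 86 against 85.2 and 87.1, which overlapped.

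**Figure D4:**
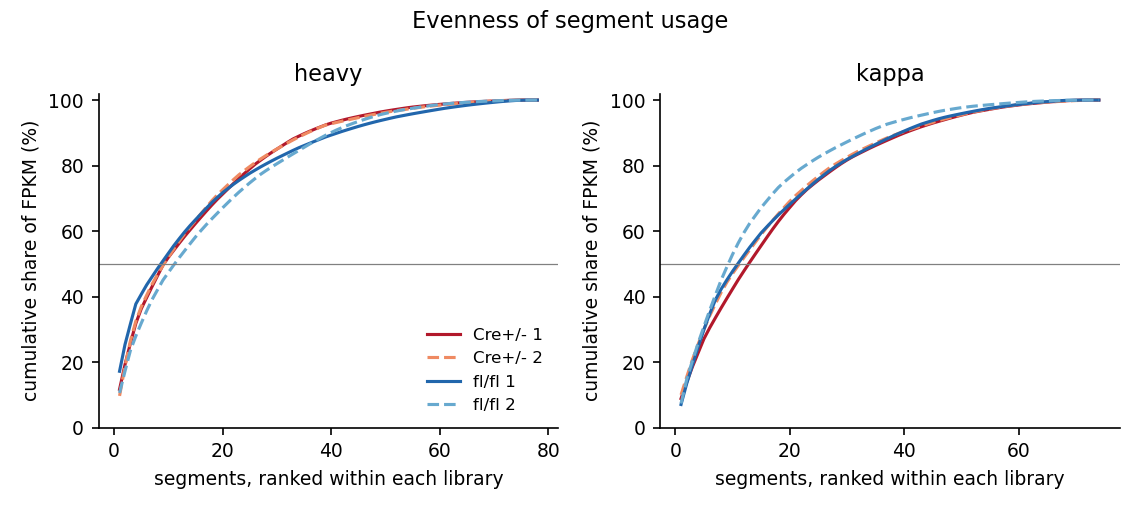
Cumulative share of locus FPKM, in percent, over segments ranked from most to least abundant within each library. The line at 50 percent is reached with 10 and 10 heavy chain segments in the libraries labelled Cre+/-, against 9 and 12 in the libraries labelled fl/fl, and the curves of the groups are interleaved.

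The libraries labelled Cre+/- resembled each other in segment mix, and the libraries labelled fl/fl did so less. The share of heavy chain FPKM that a pair of libraries had in common, the sum over segments of the smaller of the 2 shares, was 89.3% for the libraries labelled Cre+/- and 61.4% for the libraries labelled fl/fl. Across groups it was 48.5% to 53.8%. For kappa it was 87.6% for the libraries labelled Cre+/-, 65.8% for the libraries labelled fl/fl and 53.2% to 58.1% across groups. By this measure pairs across groups were the least alike, followed by the libraries labelled fl/fl.

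Rank correlation over the 78 heavy chain segments was 0.927 between the libraries labelled Cre+/- and 0.596 between the libraries labelled fl/fl, and 0.326 to 0.442 across groups. Over the 74 kappa segments it was 0.943 between the libraries labelled Cre+/-, 0.632 between the libraries labelled fl/fl and 0.406 to 0.466 across groups. These are descriptions, since segments of a library share its cells and depth. Over the other 13358 genes tested, rank correlation was 0.974 between the libraries labelled Cre+/-, 0.892 between the libraries labelled fl/fl and 0.883 to 0.900 across groups, so the libraries labelled Cre+/- were also the closest pair over other genes, while the libraries labelled fl/fl lay within the range across groups.

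The libraries labelled Cre+/- still differed by more than sampling noise. A chi-square of their segment counts per degree of freedom, which is near 1 for a library sequenced again, was 3.83 for the heavy chain and 6.58 for kappa. For the libraries labelled fl/fl, at higher counts, it was 93.1 for the heavy chain and 124 for kappa. Across groups it was 61.9 to 97.0 for the heavy chain and 103 to 126 for kappa, so by this measure, which grows with depth, the libraries labelled fl/fl were as unlike as pairs across groups. Over the other genes it was 28.5 for the libraries labelled Cre+/-, 222 for the libraries labelled fl/fl and 153 to 176 across groups. A value above 1 shows that the libraries labelled Cre+/- were not the same reads deposited again, and not that they were separate animals. The median fold between the libraries of a group was 1.37 for the libraries labelled Cre+/- over the 129 segments with at least 20 counts, and 2.31 for the libraries labelled fl/fl over 151 segments. More than 2-fold apart were 16 segments in the libraries labelled Cre+/- and 86 in the libraries labelled fl/fl.

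**Figure D5:**
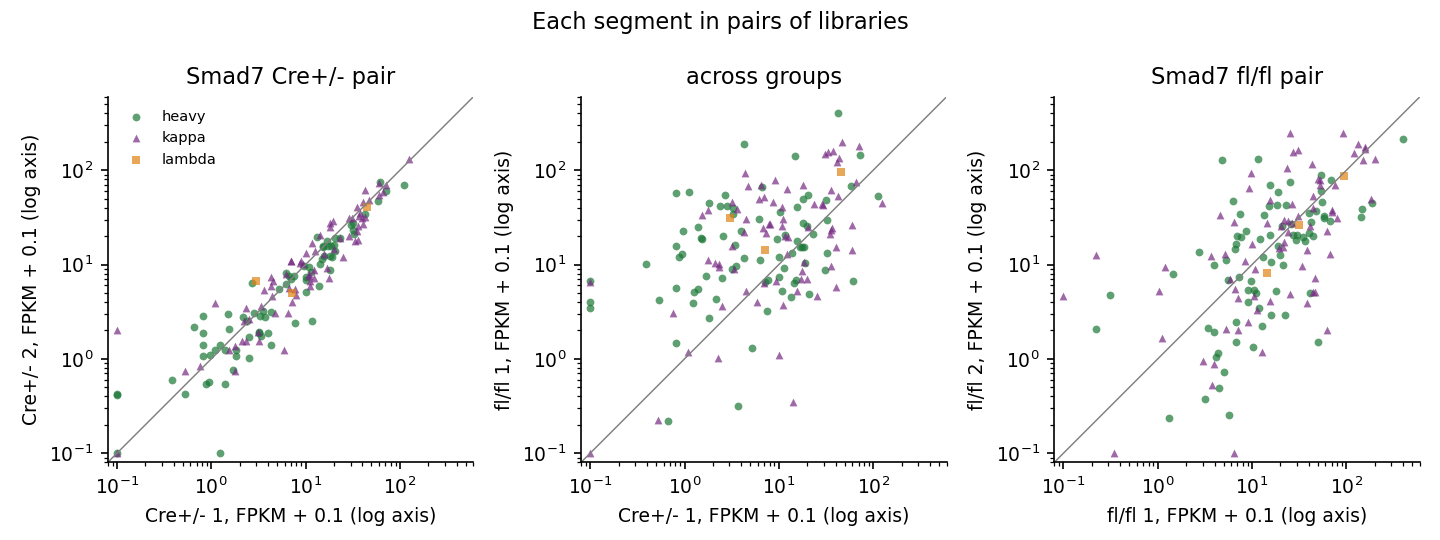
FPKM + 0.1 of each segment in a pair of libraries, on log axes, with heavy chain, kappa and lambda segments as circles, triangles and squares and a line of equality. From left to right are the libraries labelled Cre+/-, replicate 1 of each group, and the libraries labelled fl/fl. Points hug the line in the libraries labelled Cre+/- (rank correlation 0.927 for the heavy chain and 0.943 for kappa) and scatter more between the libraries labelled fl/fl (0.596 and 0.632).

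The share held by segments nearer the constant region separated the groups for kappa and not for the heavy chain. The 37 kappa segments nearer the constant region Igkc held 55.3% and 52.5% of kappa FPKM in the libraries labelled Cre+/-, against 37.7% and 45.4% in the libraries labelled fl/fl. Among them, Igkv6-15 and Igkv6-17 held 8.93% and 4.25% in Cre+/- replicate 1, and 10.1% and 5.52% in replicate 2. They held 1.57% and 0.506% in fl/fl replicate 1, and 1.18% and 0.830% in replicate 2. Much of the kappa gap thus lies in these segments, and position apart from them was not tested. The 37 heavy chain segments nearer Ighm held 50.8% and 48.9% in the libraries labelled Cre+/-, against 57.3% and 50.1% in the libraries labelled fl/fl. Kappa segments on the plus strand held 41.1% and 44.9% in the libraries labelled Cre+/-, against 52.0% and 50.4% in the libraries labelled fl/fl.

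The constant regions, which are joined to the variable segments in the same RNA, were lower as well. Of 13 listed, 9 were tested with a median log2 fold change of -1.12, 4 were lower and 0 higher at an unadjusted p under 0.05, and 0 passed at an adjusted p under 0.05. Igkc, the kappa constant region, had 1855 and 2271 FPKM in the libraries labelled Cre+/-, against 3798 and 4338 FPKM in the libraries labelled fl/fl (log2 fold change -0.99). Igha, the heavy chain of IgA, had 685 and 697 FPKM in the libraries labelled Cre+/-, against 1366 and 1208 FPKM in the libraries labelled fl/fl (-0.90). Ighm, the heavy chain of IgM, had 18.3 and 19.2 FPKM in the libraries labelled Cre+/-, against 19.1 and 19.6 FPKM in the libraries labelled fl/fl (-0.048), and these overlapped.

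The IgG heavy chains Ighg1, Ighg2b and Ighg2c had log2 fold changes of -1.12, -1.25 and -1.42, and the lambda constant regions Iglc1, Iglc2 and Iglc3 of -0.59, -1.97 and -1.50. IgA made up most of the heavy chain constant region RNA in every library: Igha was 93.2% and 90.6% of heavy chain constant FPKM in the libraries labelled Cre+/-, against 90.6% and 91.8% in the libraries labelled fl/fl. Lambda segments were 3.78% and 3.80% of light chain variable FPKM in the libraries labelled Cre+/-, against 4.73% and 3.55% in the libraries labelled fl/fl. Neither of these shares separated the groups. The share of Ighm did, at 2.498% and 2.501% of heavy chain constant FPKM in the libraries labelled Cre+/-, against 1.27% and 1.49% in the libraries labelled fl/fl.

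Variable over constant FPKM of the heavy chain was 1.30 and 1.01 in the libraries labelled Cre+/-, against 1.54 and 1.53 in the libraries labelled fl/fl. For kappa the ratio was 0.757 and 0.580 in the libraries labelled Cre+/-, against 0.745 and 0.766 in the libraries labelled fl/fl. For lambda it was 1.27 and 1.13 in the libraries labelled Cre+/-, against 1.59 and 1.49 in the libraries labelled fl/fl. The heavy chain and lambda ratios were lower without overlap in the libraries labelled Cre+/-, and the kappa ratio overlapped.

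Plasma cell genes were mixed. Of 14 listed, 12 were tested, 4 were lower and 1 higher at an unadjusted p under 0.05, and their FPKM summed to 458 and 451 in the libraries labelled Cre+/-, against 600.3 and 673 in the libraries labelled fl/fl. Jchain, which links IgA and IgM chains into polymers, had 177 and 195 FPKM in the libraries labelled Cre+/-, against 349.8 and 420.3 FPKM in the libraries labelled fl/fl (log2 fold change -1.06). The gap between the sums lay in Jchain, and without it the sum was not lower in either library labelled Cre+/-. Prdm1, a transcription factor of plasma cell differentiation, had 3.34 and 3.46 FPKM in the libraries labelled Cre+/-, against 13.3 and 5.42 FPKM in the libraries labelled fl/fl (-1.44). Tnfrsf17, the plasma cell survival receptor BCMA, had 0.990 and 1.41 FPKM in the libraries labelled Cre+/-, against 2.62 and 3.30 FPKM in the libraries labelled fl/fl (-1.31).

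Pou2af1, a coactivator in B cells and plasma cells, had a log2 fold change of -1.19, and Tnfrsf13b, a receptor of the same survival pathway as Tnfrsf17, of -0.81. The other plasma cell genes tested lay on either side of 0: Creld2 had 1.08, Fkbp11 0.57, Xbp1 0.15, Sdc1 0.14, Irf4 -0.040, Txndc5 -0.19 and Derl3 -0.42. Mzb1, a further plasma cell gene, stood under 0.5 FPKM in every library.

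Genes of B cells before the plasma cell stage were low. Of 13 listed, 4 were tested. The 1 that was lower at an unadjusted p under 0.05 in edgeR's test was Pou2af1, which is also counted among the plasma cell genes above. The FPKM of the 13 summed to 11.8 and 9.58 in the libraries labelled Cre+/-, against 15.6 and 17.0 in the libraries labelled fl/fl. Ms4a1, a surface protein of mature B cells, was near 0 in every library. Of 6 B cell progenitor genes listed, 2 were tested and 0 were lower or higher at an unadjusted p under 0.05, with Vpreb3 at 1.23 and 16.9 FPKM in the libraries labelled Cre+/-, against 0.913 and 1.47 FPKM in the libraries labelled fl/fl. Of 9 genes of the plasma cell niche and antibody transport, 8 were tested, 0 were lower and 1 higher at an unadjusted p under 0.05, and Pigr had a log2 fold change of 0.17.

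Genes of other immune cells were lower in the same libraries. Of 12 T and NK cell genes tested, 10 were lower at an unadjusted p under 0.05, with sums of 17.1 and 16.9 FPKM in the libraries labelled Cre+/-, against 75.0 and 63.2 FPKM in the libraries labelled fl/fl. Of 7 neutrophil genes tested, 6 were lower, with sums of 33.0 and 31.2 FPKM in the libraries labelled Cre+/-, against 223 and 177 FPKM in the libraries labelled fl/fl. Smooth muscle genes, 3 of 7 higher, moved the other way. The part of these cell types in the lower segment levels was not tested.

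At the threshold, the segments just inside were Igkv5-45, Ighv8-5 and Igkv3-9, with mean FPKM of 1.30, 1.19 and 1.15. Just outside were Ighv2-4, Igkv4-86 and Igkv4-62, with 0.993, 0.937 and 0.932. Igkv5-45 had 5 and 5 counts in the libraries labelled Cre+/-, against 26 and 6 in the libraries labelled fl/fl, so segments at this level rest on few counts.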

How the data were processed

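Each library had a table with a read count and an FPKM value per gene. The authors deposited raw counts and FPKM, per the file headers. HISAT2, HTSeq 0.13.5 and GRCm38 are listed in the submitters' processing notes, without counting settings or use of strand. By default HTSeq does not count reads aligned to several places, so close copies can be undercounted. The deposited gene length equalled the merged exon length in GENCODE release 21 within 0.1 percent for 205 of 205 segments with a count.

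Genes averaging 1 FPKM or more (13513) had their counts tested with edgeR 4.0.16 (quasi-likelihood, TMM scaling, group as the only term, two-sided, R 4.3.3), adjusted by Benjamini-Hochberg over all of them. Log2 fold changes are the libraries labelled Cre+/- over those labelled fl/fl, and SE is their size over the root of the F statistic. Shares are of the summed FPKM of a locus. DESeq2 1.42.0, limma 3.58.1 on log2(FPKM + 1), other scalings and filters, the replicate number as a block, and each library left out were alternatives. The steps were tested on simulated data. Intervals cover counting error only.

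The members and gene lists were chosen with earlier results of these data known. Segments named were the 5 most abundant of the heavy and kappa loci, all lambda segments, the leader in each library, and the 6 lower and 6 higher with the smallest p whose groups did not overlap, plus 3 on each side of the threshold. Of the gene lists, constant regions and plasma cell genes past the same threshold were named. Relatives (Ighv1-52, Ighv1-61, Igkv6-25, Igkv9-124), Ighv3-4, and Mzb1, Ms4a1, Vpreb3 and Pigr were added after their values were seen.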

Additional observations from a re-analysis of the deposited data

How the results depend on the processing

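At an adjusted p under 0.05 the count of 0 segments held with median-of-ratios or total count scaling, a mean FPKM of at least 2 and limma. It was 80 lower (39% of 205, against 3.41% of all genes) and 11 higher (5.37%, against 3.63%) with no filter, and 52 (33.5%, against 3%) and 7 (4.52%, against 3.24%) with DESeq2. With 1 library left out it ran from 0 to 82 lower and from 0 to 21 higher, and at an unadjusted p under 0.05 from 45 to 89 lower and from 5 to 26 higher; the library left alone is then assumed to vary like the other group. These counts rose when a library labelled fl/fl was left out, and calls over all genes tested rose there as well. The rise is thus not particular to the segments. At the unadjusted cutoff, the share of segments lower was above that of all genes in each of these fits. The share higher was below that of all genes without fl/fl replicate 1 and above it in the other fits. Same-numbered libraries had a correlation of -0.076 between their deviations from group means, so the numbers were not taken to pair them. The replicate block gave 0 segments at an adjusted p under 0.05 in edgeR. At an unadjusted p under 0.05 it gave 67 lower (43.2%, against 4.86% of all genes) and 11 higher (7.1%, against 6.42%). The heavy chain difference in effective number, -1.54, was -4.70 without the largest segment of each library and ran from -4.47 to 1.39 with 1 library left out. Among segments past the FPKM threshold, the difference in number detected was -0.769 for the heavy chain and 0.789 for kappa at a common depth. As counted it was -2.5 and 0. The lambda log2 ratio of sums was -1.90 without the largest segment. Of 26 named genes, 3 changed sign under some setting: Ighv5-17 was 0.72 and Igkv1-117 was 0.47 without fl/fl replicate 1, and Ighv9-3 was -0.0089 without it and -0.051 without Cre+/- replicate 1. With 1 library left out Ighv5-17, Igkv1-117 and Ighv9-3 ran from -1.11 to 0.72, from -1.34 to 0.47 and from -0.051 to 0.79 on the log2 scale. The cause of these changes was not tested. Segments with few counts in the libraries labelled Cre+/- have imprecise fold changes. Alternatives chosen after seeing the data (counts in place of FPKM, other thresholds, or no close copies) left the libraries labelled Cre+/- the most alike pair at the heavy and kappa loci.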
